A study of Oryza sativa with 6 samples.

Results

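Antisense-OsPDCD5 and nontransgenic rice leaves were compared after 20 min in NaCl, as the difference between 1 array of each genotype over every rice probe set. Both sets of seedlings were Zhonghua 11, a japonica rice cultivar, grown for 2 weeks in culture medium. The antisense plants carried a construct against OsPDCD5, a rice gene named after a human gene of programmed cell death, and the nontransgenic plants carried none. The comparison used 2 of the 6 arrays of the series, each made from leaf RNA of 10 plants after transfer to dishes with 200 mM NaCl. The other 4 arrays held the same genotypes before NaCl and at 3 h, and are used here to show where the 20 min difference stood apart. The sources used here give neither the construct's promoter nor the number of transgenic lines, and name no seedlings moved without NaCl. OsPDCD5 was not among the genes analysed here, and its own level therefore offers no check of the genotype labels.

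Each group was 1 array, so no value below has a replicate, no test was possible and no p-value is given. A lasting difference between the seedling sets other than the transgene cannot be told apart from it, nor can fewer cells of a type from less RNA per cell. A difference is antisense minus nontransgenic on the scale log2(signal + 16), where the signal is the MAS5 summary of a probe set and 16 damps values near background. A difference of 1 is a 2-fold difference on that scale. The only internal yardstick was the disagreement between probe sets of one gene, whose 20 min differences had a pooled SD of 0.54 over 2353 genes with several probe sets. Of 466 such genes with a probe set past 2-fold, 105 had all of them past it the same way and 10 had them past it in opposite directions.

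Rice leaves answer wounding, salt and pathogens with jasmonate signals, held in check by JAZ repressor proteins whose own genes are transcribed when the signal arrives. WRKY and DREB1 transcription factors are among the quickly transcribed stress genes. Diterpenoid phytoalexins, the momilactones and phytocassanes, are antimicrobial compounds built from geranylgeranyl diphosphate by copalyl diphosphate synthases (CPS), kaurene synthase-like enzymes (KSL) and cytochromes P450. Phenylalanine ammonia-lyase (PAL) opens the phenylpropanoid pathway to lignin, and nicotianamine synthases (NAS) make a chelator that moves iron within the plant.

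Of the 28629 probe sets past the filter on low values, 1715 (5.99%) were at least 2-fold higher and 2227 (7.78%) at least 2-fold lower in antisense leaves at 20 min. The higher ones thus made up 43.5% of those past 2-fold. When the arrays were scaled to the poly-A spikes, bacterial control RNAs that are usually added to a sample before labelling, that share was 23.3% (1062 higher and 3493 lower) and the median over all probe sets was -0.28 in place of -0.01. With that scaling each difference dropped by about 0.29 at 20 min, 0.67 before salt and 0.63 at 3 h. A difference smaller than the shift of its stage can therefore change sign, and below it is printed without that scaling unless stated. The shift is itself uncertain. At 20 min the 33 poly-A spike probe sets differed by -0.46 to 0.66, with a median of 0.24, and the hybridisation spikes had a median of 0.08. At 20 min 13 of the 32 list medians changed sign with the spikes. Of the 14884 genes past the filter, taken with 1 probe set each, 3.97% were at least 2-fold higher and 7.65% lower at 20 min. Of the same genes 6727 lay above 0 and 8157 below. The list counts below are to be read beside these shares.

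Many of the 20 min differences also stood at the other stages. Before salt 7.30% of probe sets were at least 2-fold higher and 8.12% lower, and at 3 h 5.90% and 8.05%. Of the 1715 higher probe sets, 594 (34.6%) were also at least 2-fold higher both before salt and at 3 h, and of the 2227 lower ones 912 (41.0%) were lower at both. By contrast 617 (36.0%) of the higher and 713 (32.0%) of the lower ones did not pass 2-fold the same way at either other stage. Across probe sets the 20 min difference correlated with that before salt at r = 0.758 and with that at 3 h at r = 0.682. These describe pairs of different arrays of the same seedling sets, scaled by the same method, and probe sets are not independent replicates. Of the 7158 dimmest probe sets past the filter 20.7% were past 2-fold, and of the 7157 brightest 6.4%.

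The departure of a probe set was defined as its 20 min difference minus the mean of its differences before salt and at 3 h. It was at least 1 log2 unit up in 1083 probe sets (3.78%) and down in 1136 (3.97%). With scaling to the poly-A spikes the counts were 2065 up and 555 down. Among those up, the antisense array at 20 min lay further from its own other stages than the nontransgenic array in 566, and the nontransgenic array lay further in 517. In the plot of the 20 min difference against the other stages, the cloud lies along the line of equal differences and the genes named in it stand off it.

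**Figure D1:**
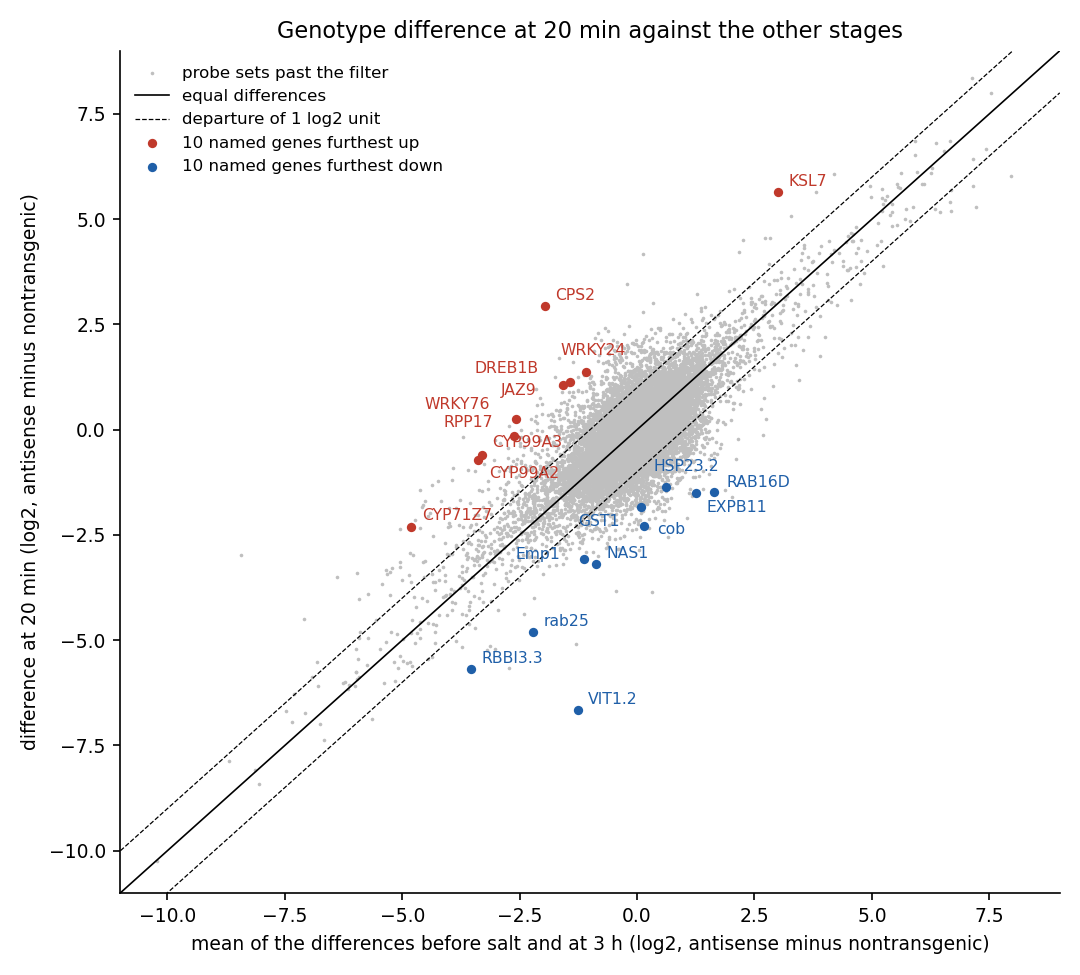
Each grey point is 1 of the 28629 probe sets past the filter. The x axis is the mean of the genotype differences before salt and at 3 h and the y axis the difference at 20 min, both as log2, antisense minus nontransgenic. The solid line marks equal differences and the dashed lines a departure of 1 log2 unit. CPS2 (4.90) has the largest departure up and VIT1.2 (-5.40) the largest down among named genes.

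Several early stress genes were well below the nontransgenic level in antisense leaves before salt and at 3 h but level with it or above it at 20 min. WRKY76 (LOC4347069), a WRKY transcription factor, had signals of 498, 658 and 383 in nontransgenic leaves before salt, at 20 min and at 3 h, and of 76.3, 786 and 46.7 in antisense leaves. The antisense array at 20 min was thus the highest of the 6, while the other 2 antisense arrays were the lowest. Its differences were -2.48, 0.25 and -2.67, a departure of 2.82.

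WRKY24 (LOC4327518) had nontransgenic signals of 449, 1305 and 789 and antisense signals of 272, 3419 and 271. Its antisense level was therefore 2.60-fold higher at 20 min and lower at the other stages. In the WRKY list, which held 6 genes past the filter, the median difference was 0.24 at 20 min, against -0.52 before salt and -1.05 at 3 h, and -0.05 at 20 min with scaling to the poly-A spikes. Besides WRKY24 only WRKY62 passed 2-fold at 20 min, and it was lower by a log2 difference of -1.42, close to its -1.44 and -1.87 at the other stages. WRKY71, the brightest of the list at 20 min with 11180 and 13280, differed by 0.25.

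DREB1B (LOC4347618), which belongs to the DREB1 factors of the cold and dehydration response, had nontransgenic signals of 373, 1091 and 165 and antisense signals of 84.7, 2432 and 81.2. The order of the genotypes was thus turned at 20 min, with differences of -1.95, 1.14 and -0.90. CBF3, another DREB1 gene, had differences of -1.57, 0.98 and -0.31, DREB1G 0.25 at 20 min and DREB1E -0.63. Over the 4 DREB1 genes the median 20 min signal lay 3.84 log2 units above that before salt in antisense leaves and 2.18 in nontransgenic leaves, side by side from arrays that the differences share. The 2 DREB2 genes and EREBP-1 lay between -0.19 and -0.01 at 20 min.

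JAZ9 (LOC4331832), a jasmonate repressor, had nontransgenic signals of 1081, 1722 and 547 and antisense signals of 387, 3612 and 156. The antisense array was the highest of the 6 at 20 min and the lowest at 3 h. Its differences were -1.44 before salt, 1.06 at 20 min and -1.71 at 3 h. JAZ10 (-1.23, 0.61 and -1.74) and JAZ12 (-1.03, 0.56 and -0.68) followed the same order, and JAZ13 stood at -0.05, 1.74 and -0.92 with 20 min signals of 1108 and 3747.

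Of the 12 JAZ genes past the filter, 6 lay above 0 at 20 min, against 3 before salt and 1 at 3 h, with medians of -0.02, -0.37 and -0.61. With scaling to the poly-A spikes 4 lay above 0 at 20 min and none at the other stages, with medians of -0.31, -1.03 and -1.24 in the same order. JAZ8 and JAZ5 lay at -0.79 and -0.56, so the members lay on both sides of 0. The whole jasmonate list of 32 genes had 2 higher (JAZ13 and JAZ9) and 3 lower at 20 min, against 3.97% and 7.65% of all 14884 genes. The 3 lower ones were genes of jasmonate and oxylipin synthesis, the lipoxygenases LOX9 (-2.23) and LOX2.1 (-1.70) and the oxophytodienoate reductase OPR-1 (-1.12). With scaling to the poly-A spikes the list had 1 higher and 5 lower, and JAZ9 was below 2-fold.

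RPP17 (LOC4327497), also named ERG1, had nontransgenic signals of 464, 1505 and 980 and antisense signals of 61.8, 1361 and 147. The genotypes met at 20 min with a difference of -0.14, while the other stages stood at -2.63 and -2.61. ABA8OX1, an abscisic acid 8'-hydroxylase that breaks abscisic acid down, stood at -1.80, 0.37 and -1.83, with 20 min signals of 10320 and 13360. In the abscisic acid list only SAPK9, a stress-activated kinase, passed 2-fold among 14 genes, at 1.15 with signals of 40.4 and 109. The list's median was -0.07 (-0.36 with scaling to the poly-A spikes). With that scaling 0 of the 14 were past 2-fold higher and 3 were lower.

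**Figure D2:**
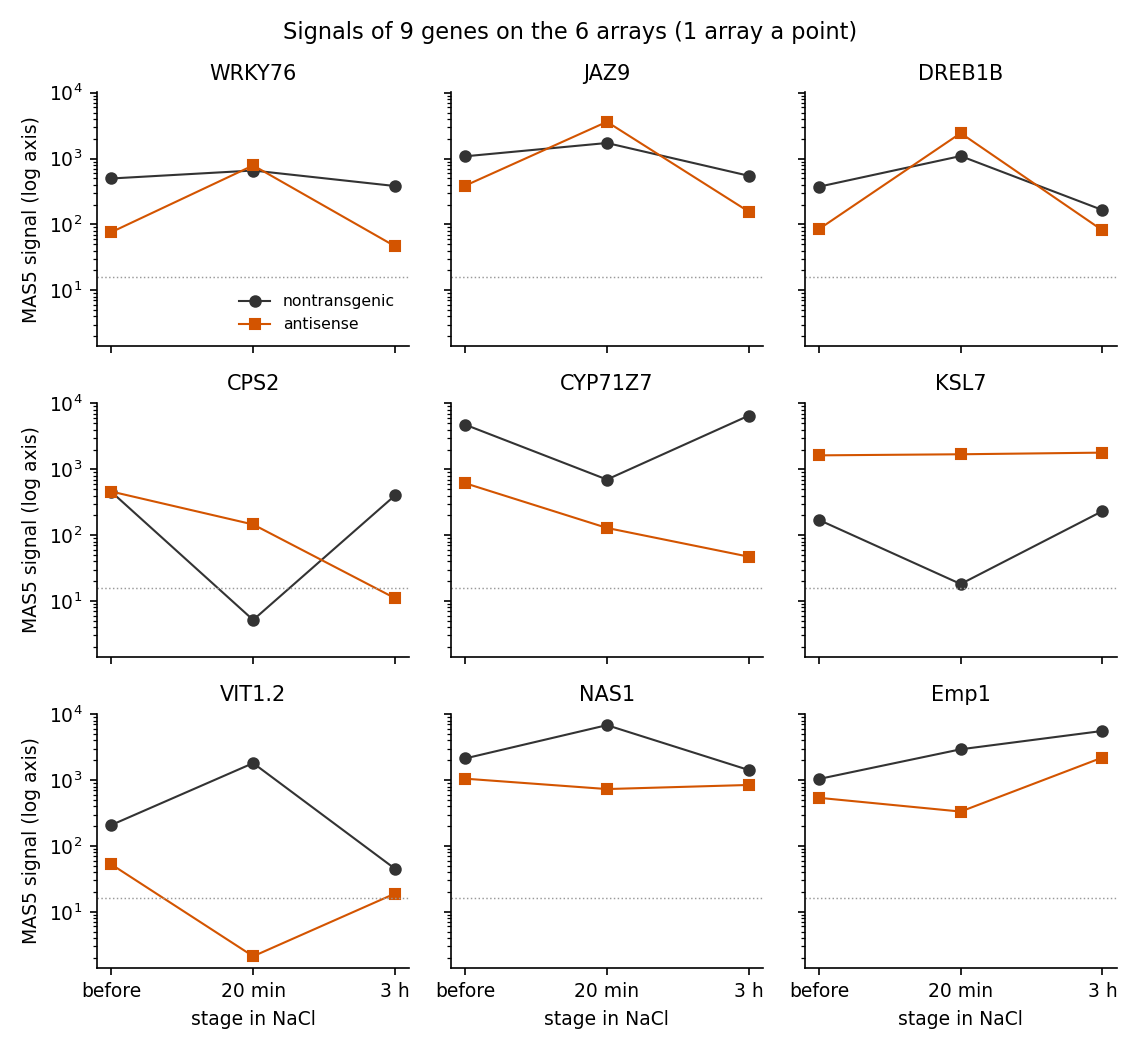
MAS5 signal on a log axis (y) of 9 genes before salt, at 20 min and at 3 h (x), with circles for nontransgenic and squares for antisense leaves. Each point is 1 array and the dotted line marks a signal of 16. In the top row the antisense line peaks at 20 min, reaching 786 for WRKY76 and 3612 for JAZ9. In the middle row the nontransgenic line dips at 20 min, to 5.17 for CPS2. In the bottom row the gap is widest at 20 min, with VIT1.2 at 1812 and 2.12.

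In several of the diterpenoid phytoalexin genes, the nontransgenic array at 20 min was the one that stood apart. CPS2 (LOC9266189), the ent-copalyl diphosphate synthase of phytoalexin synthesis, had nontransgenic signals of 455, 5.17 and 401 and antisense signals of 460, 146 and 11.1. The genotypes were level before salt, antisense was higher at 20 min and nontransgenic at 3 h, with differences of 0.02, 2.93 and -3.94. With 1 or 64 in place of 16 the 20 min difference was 4.57 or 1.60, since 1 of the signals lies below 16.

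KSL7 (LOC4329724), which makes the cassadiene skeleton of the phytocassanes, had nontransgenic signals of 171, 18.1 and 232 and antisense signals of 1630, 1693 and 1793. All 3 antisense arrays were above all nontransgenic arrays, as for 12.8% of all 14884 genes. The KSL7 difference of 5.64 at 20 min exceeded the 3.14 and 2.86 of the other stages. Its other probe set gave 2.65 at 20 min. CYP71Z6 was also higher, by 1.51, with signals of 70.0 and 230.

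Of the 9 P450s of the pathway past the filter, taken with 1 probe set each, 3 were at least 2-fold lower in antisense leaves at 20 min (CYP76M7, CYP71Z7 and CYP701A9) and 1 higher (CYP71Z6). Of all 14884 genes 7.65% were lower and 3.97% higher. CYP76M7 (LOC4341447), a P450 that hydroxylates cassadiene, had nontransgenic signals of 3328, 1174 and 3084 and antisense signals of 59.6, 57.3 and 21.0. No antisense array came near a nontransgenic one, and the difference was -4.02 at 20 min, against -5.47 and -6.39 at the other stages. CYP71Z7 (LOC4329726) had nontransgenic signals of 4768, 700 and 6534 and antisense signals of 616, 129 and 47.2, so that the gap was narrowest at 20 min, where the difference was -2.30.

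CYP99A3 (LOC4335091) and CYP99A2 (LOC4335096), P450s of momilactone synthesis, had differences of -0.60 and -0.71 at 20 min, against values between -3.93 and -2.82 at the other stages. Nontransgenic CYP99A3 stood at 755, 138 and 864, while the antisense arrays stayed between 53.5 and 85.3. CPS4, the syn-copalyl diphosphate synthase, stood at -4.80, -2.34 and -4.46, again with the smallest gap at 20 min. OsMAS, momilactone A synthase, did not follow this order and stood at -1.21, -1.65 and -2.73.

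Over the 14 genes of the list past the filter, 3 were higher and 6 lower past 2-fold at 20 min, against 3.97% and 7.65% of all genes. The medians were -1.10, -0.66 and -3.45 before salt, at 20 min and at 3 h. The list's median change from before salt to 20 min was -1.75 in nontransgenic and -0.39 in antisense leaves. These values share the 20 min arrays with the difference and are given side by side. KSL10 (-1.41 at 20 min) changed over the same step by -2.09 in nontransgenic and -3.19 in antisense leaves. On its brighter probe set nontransgenic CYP76M6 did not dip at 20 min, with signals of 91.7, 115 and 91.5 and a difference of -0.47. Its other probe set gave -3.14 at 20 min.

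Pathogenesis-related genes were the list with the lowest median at 20 min. Of 12 past the filter, 9 were at least 2-fold lower and none at least 2-fold higher, against 7.65% and 3.97% of all genes. The median was -1.50 at 20 min, -0.72 before salt and -1.27 at 3 h. RBBI3.3 (LOC9271230), a Bowman-Birk protease inhibitor, had nontransgenic signals of 13650, 11000 and 20150 and antisense signals of 414, 198 and 4777. PBZ1, a PR10 protein, had nontransgenic signals of 25690, 20100 and 30780 and antisense signals of 4494, 2297 and 319. Each antisense array lay below each nontransgenic array for both genes, as it did for 17.3% of all 14884 genes, while the opposite held for 12.8%.

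Chitinases, which cut fungal cell walls, made up 8 of the 12. At 20 min 6 of them were past 2-fold lower, against 7.65% of all genes, with a median of -1.46. Before salt 4 lay above and 4 below 0 with a median of -0.17. With scaling to the poly-A spikes these medians were -1.71 and -0.82, and none of the 8 lay above 0 before salt. Cht2 had nontransgenic signals of 1222, 2027 and 3534 and antisense signals of 1482, 371 and 760, hence a difference of 0.28 before salt and of -2.40 at 20 min. Cht4 went from 0.19 to -1.46 and Cht5 from 0.38 to -1.22, positive values that are smaller than the spike shift before salt. Cht11 was lower at each stage (-2.50 at 20 min), and Cht6 differed by 0.08.

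In the phenylpropanoid and lignin list, 12 of 26 genes were at least 2-fold lower at 20 min and none at least 2-fold higher. Of all 14884 genes 7.65% were lower and 3.97% higher. The list's median was -0.63 at 20 min, and lower before salt (-0.79) and at 3 h (-1.15). PAL (LOC4330034) had nontransgenic signals of 9420, 7896 and 5179 and antisense signals of 610, 286 and 630. Its 5 probe sets all gave a negative 20 min difference, between -5.97 and -1.88. The genotypes did not overlap over the stages for PAL or for PAL06 (-3.66), another phenylalanine ammonia-lyase. Antisense likewise lay wholly below nontransgenic for 17.3% of all genes.

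Some genes of steps nearer to lignin were lower as well, and others were level. CAD2 (LOC4328552), a cinnamyl alcohol dehydrogenase, had nontransgenic signals of 4729, 2591 and 4371 and antisense signals of 257, 204 and 203. AT5 and AT4, acyltransferases that load phenolic acids onto monolignols, stood at -3.38 and -4.39, the latter with an antisense signal of 3.87 at 20 min. For AT4 the value ran from -6.37 to -2.78 over the other processing choices. CAD8A (-2.63), 4CL3 (-2.43) and HCT2 (-2.08) were the next in size. Their relatives CAD3 (0.01), CAD8C (0.05), CAD1 (0.13) and HCT3 (0.04) were near level, and 4CL1 stood at 0.56. In the list 8 of 26 genes lay above 0.

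**Figure D3:**
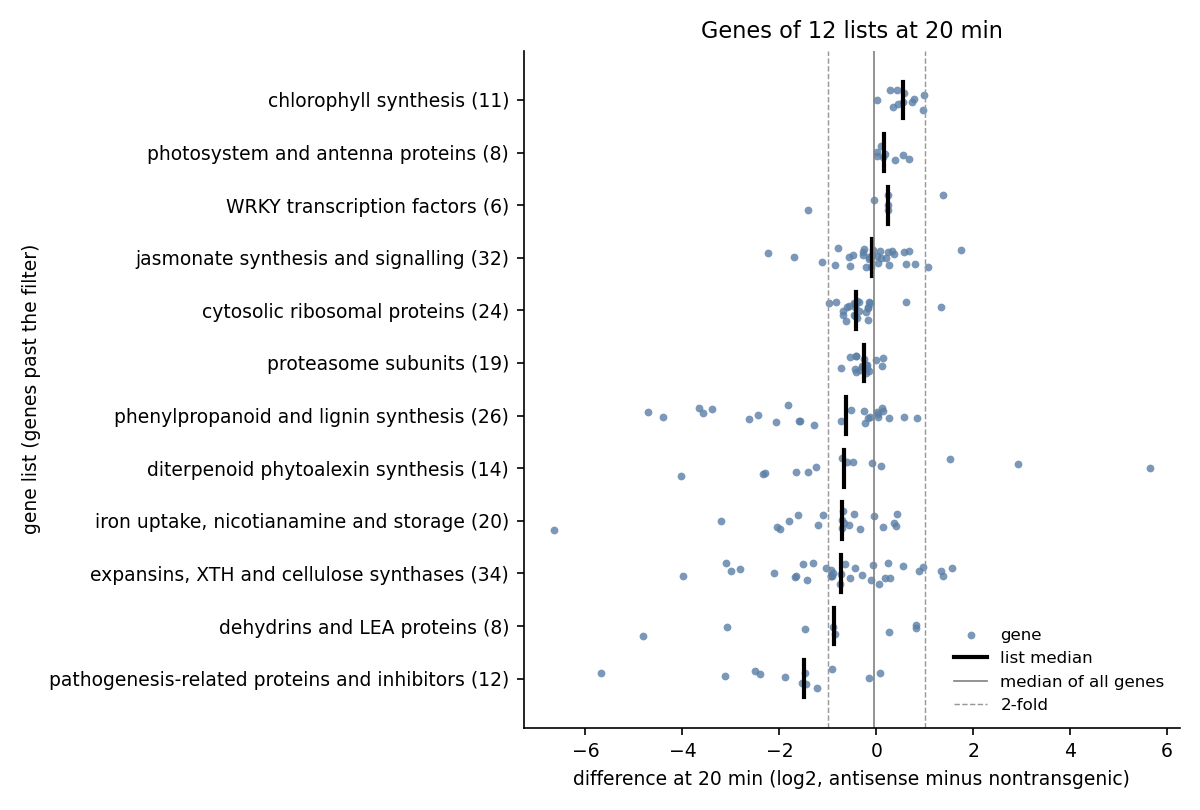
Each point is 1 gene of a list, placed by its 20 min difference (x axis, log2, antisense minus nontransgenic), with the list (y axis, number of genes past the filter in brackets). Black bars are list medians, the grey line the median of all genes (-0.05) and the dashed lines 2-fold. All 11 chlorophyll genes lie above 0 (10 with scaling to the poly-A spikes), and 9 of 12 pathogenesis-related genes lie left of 2-fold. With scaling to the poly-A spikes the photosystem median was -0.13 and the WRKY median -0.05.

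Genes of iron storage, nicotianamine synthesis and iron uptake were among those lower in antisense leaves, and VIT1.2, NAS1, NAS2, IRT1 and IRT2 had their widest gap at 20 min. VIT1.2 (LOC4346978), a vacuolar iron transporter, had nontransgenic signals of 208, 1812 and 45.1 and antisense signals of 52.5, 2.12 and 18.9. At 20 min the nontransgenic array was the highest and the antisense array the lowest of the 6, and the difference was -6.66, against -1.71 and -0.81. It was -9.18 with 1 and -4.83 with 64 in place of 16.

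NAS1 (LOC4332608), a nicotianamine synthase, had nontransgenic signals of 2133, 6836 and 1424 and antisense signals of 1052, 732 and 844. NAS2 had nontransgenic signals of 2036, 5112 and 1092 and antisense signals of 1401, 1271 and 734. In both, the nontransgenic array at 20 min stood above all others, while the antisense array at 20 min was below that before salt. The 20 min differences were -3.20 and -1.99. NAS1 and NAS2 are close copies, and how far their probe sets share transcripts was not tested.

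The iron uptake transporters IRT1 (-2.06) and IRT2 (-1.61) were also lowest at 20 min, against values between -1.09 and -0.16 at the other stages. Of 20 iron genes past the filter 8 were at least 2-fold lower and none 2-fold higher, against 7.65% and 3.97% of all genes. The medians were -0.70 at 20 min, -0.46 before salt and -0.36 at 3 h. With scaling to the poly-A spikes these were -0.99, -1.10 and -0.93, so the list as a whole was not lowest at 20 min. YSL12 (-1.79), YSL13 (-1.10) and NRAMP5 (-1.21), metal transporters, completed the 8, and their gap was wider before salt. NAS2 and IRT1 are counted among the root markers too. The summed signal of the 7 root markers at 20 min was 8708 in nontransgenic and 3918 in antisense leaves. Most of it was NAS2 and the potassium transporter HAK1 (2134 and 1363). Of the root silicon transporters, Lsi1 stood at 722 and 744 and Lsi2 at 1.34 and 1.14. PHT1-2 stood at 556.5 and 488.7. The part of root tissue in the result was not tested.

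Dehydrin and LEA genes, whose proteins protect drying cells and accumulate in seeds, were lower in antisense leaves at 20 min in 5 of 8 genes, 3 of them past 2-fold. Of all 14884 genes 8157 lay below 0 and 7.65% were past 2-fold lower. The list's median was -0.86 at 20 min, 0.31 before salt and 0.57 at 3 h, where the last pair turned to -0.30 and -0.05 with scaling to the poly-A spikes and the first stood at -1.15. RAB16D (LOC4350451) had nontransgenic signals of 82.3, 135 and 255 and antisense signals of 121, 38.6 and 1887. The antisense array was thus the lowest of the 6 at 20 min and the highest at 3 h, with differences of 0.48, -1.47 and 2.81.

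Emp1 (LOC4338499), an Em-type LEA gene, had nontransgenic signals of 1040, 2939 and 5583 and antisense signals of 539, 333 and 2205. Its difference of -3.08 at 20 min compared with -0.93 and -1.33. LEA19 and RAB21 stood at -0.88 and -0.84 at 20 min, against 1.09 and 0.05 before salt. RAB16B (0.83), Dhn1 (0.81) and RAB16C (0.26) lay above 0 at 20 min. RAB16 genes are close copies in one family. The rab25 gene, another dehydrin, stood at -4.80 with an antisense signal of 5.55.

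**Figure D4:**
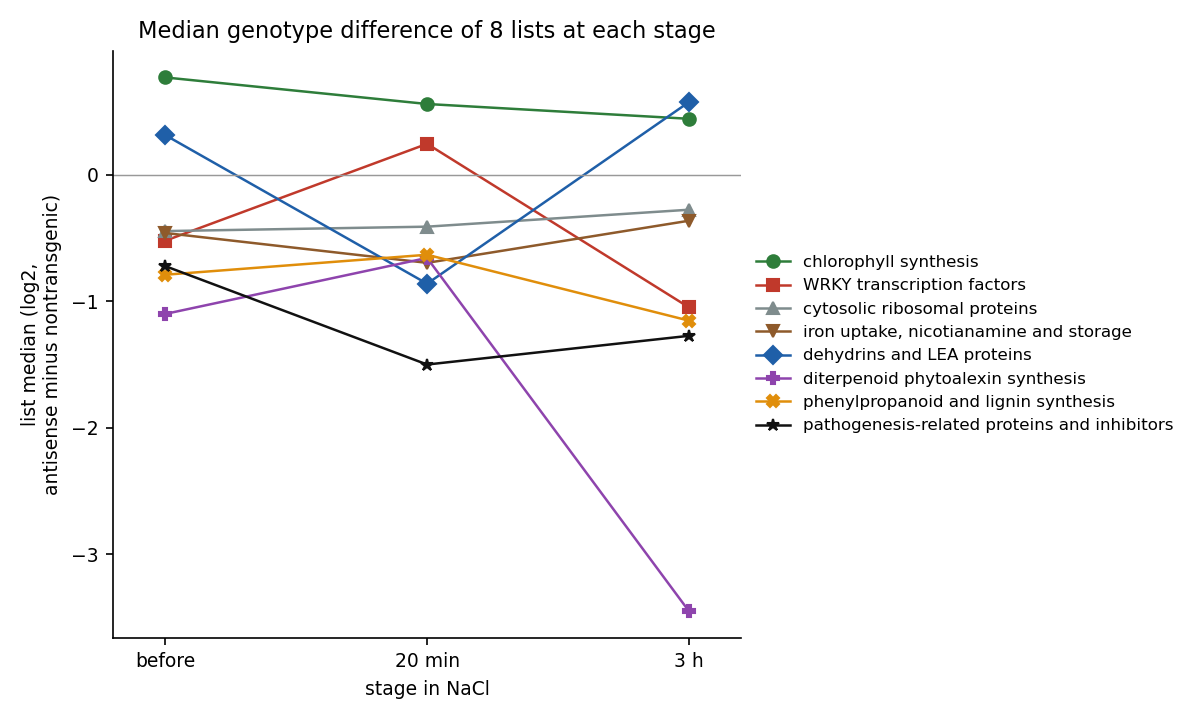
Median genotype difference (y axis, log2, antisense minus nontransgenic) of 8 gene lists before salt, at 20 min and at 3 h (x axis). Each point is the median over the genes of a list on 1 pair of arrays. The dehydrin median lies below 0 only at 20 min (-0.86), but was -0.30, -1.15 and -0.05 with scaling to the poly-A spikes. The WRKY median lies above 0 only at 20 min (0.24), but was -0.05 with that scaling, under which the chlorophyll medians were 0.10, 0.27 and -0.18.

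Genes of wall loosening and cellulose synthesis were mixed with more lower than higher. Of 34 past the filter, 11 were at least 2-fold lower and 3 higher (EXPB8, CSLA5 and EXPA1), with a median of -0.74. Over all genes 7.65% were lower and 3.97% higher. XTH8 (LOC4345019), a xyloglucan-modifying enzyme, had nontransgenic signals of 1336, 4546 and 547 and antisense signals of 295, 271 and 102. Its gap was widest at 20 min, where the nontransgenic array was the highest, and the difference was -3.99. The expansins EXPB3 (-3.10), EXPB4 (-2.99) and EXPA2 (-2.12) and the cellulose synthase CESA1 (-2.81) were lower. EXPB11, another expansin, stood at 0.32, -1.50 and 2.18 with signals between 1.88 and 70.3.

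All 11 chlorophyll synthesis genes lay above 0 at 20 min, none past 2-fold, with a median of 0.56. With scaling to the poly-A spikes 10 of 11 lay above 0 and the median was 0.27. PPO, protoporphyrinogen oxidase, had nontransgenic signals of 319, 688 and 386 and antisense signals of 985, 1379 and 912. Each antisense array lay above each nontransgenic array, and the same held for CHLG, chlorophyll synthase (0.97 at 20 min). It also held for 12.8% of all 14884 genes. The 8 photosystem, antenna and Rubisco genes had a median of 0.16, which turned to -0.13 with scaling to the poly-A spikes, so their direction depends on the scaling.

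Cytosolic ribosomal protein genes lay below 0 in 22 of 24 cases at 20 min, with a median of -0.41 and 1 gene past 2-fold, RPL18, which was higher by 1.34. Proteasome subunits lay below 0 in 16 of 19, with a median of -0.26. Both medians were about as low before salt and at 3 h, between -0.45 and -0.18, and with scaling to the poly-A spikes they were -0.70 and -0.55 at 20 min.

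The largest named differences outside these lists' themes were present at every stage. OsC3H40 (LOC4340263), a CCCH zinc finger gene, had nontransgenic signals of 2.23, 22.2 and 17.5 and antisense signals of 4225, 3872 and 4236. METK3, an S-adenosylmethionine synthetase (5.45), the small heat shock gene HSP16.0 (5.36) and the autophagy gene ATG8D (4.95) were likewise near background in nontransgenic leaves at 20 min, with signals of 21.98, 6.28 and 28.9. BURP2 (3.42) and CRSH2 (3.04), a chloroplast enzyme of guanosine tetraphosphate synthesis, were bright in both genotypes.

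BURP2 (LOC4338119) had nontransgenic signals of 673, 2386 and 3853 and antisense signals of 19920, 25640 and 10740. The gap narrowed over the stages, with differences of 4.85, 3.42 and 1.48. Smaller differences among the higher genes were those of CPS2, the ligase-like gene 4CLL7 (2.63), the glucosidase gene BGLU9 (2.51), OsHpt5 (2.48) of the histidine phosphotransfer family and the aquaporin gene OsPIP2;5 (2.41). On the lower side pinA stood at -5.87 and NAC45, a NAC transcription factor, at -3.77, and each was nearly as low or lower at the other stages.

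Much of the largest difference carried no gene name. Of the 100 probe sets with the largest positive differences, 5 had a curated name, 34 only a locus and 61 no gene. Of the 100 most negative ones the counts were 13, 39 and 48. LOC4340976 differed by 8.01 and LOC4340728 by 6.86, and LOC4345406 by -6.72 and LOC4340994 by -6.67, in the same direction and past 2-fold at all stages.

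The remaining departures down were those of HSP23.2 (-1.99), a small heat shock gene, GST1 (-1.91), a glutathione S-transferase, and cob (-2.44), the mitochondrial cytochrome b gene. GST1 (LOC4334347) had nontransgenic signals of 328, 498 and 390 and antisense signals of 794, 128 and 176. It was thus the highest of the 6 in antisense leaves before salt and the lowest there at 20 min. In the redox list of 65 genes 2 were higher (GST-I and OsTrx01) and 7 lower, against 3.97% and 7.65% of all genes. The median was -0.09 (-0.38 with scaling to the poly-A spikes). With that scaling 0 were past 2-fold higher and 10 lower.

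Other stress lists stayed near the median of all genes. Heat shock genes (40) had a median of -0.03, and -0.30 with scaling to the poly-A spikes. Without that scaling 3 were higher (HSP16.0, hsp17.9 and CLPB-C) and 5 lower (HSP16.9B, HSP23.2, HSP17.9B, HSF03 and HSF10), and with it 1 and 11. Calcium kinases and sensors (71) had a median of 0.08 and -0.20 with scaling to the poly-A spikes. Within them 18 of 22 CIPK kinases lay above 0 at 20 min, and 13 of 22 with that scaling. Before salt and at 3 h 16 of the 22 lay above 0 at each stage, and 7 and 2 with that scaling. Of all 14884 genes 6727 lay above 0 at 20 min. CIPK11 (1.82), CIPK18 (1.66) and CIPK10 (1.37) were past 2-fold higher, and CML14 (-1.92) and CML11 (-1.15), calmodulin-like proteins, lower. The 4 probe sets of CIPK10 ran from 0.21 to 1.37.

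Aquaporins (22) had 3 higher (OsPIP2;5, TIP2 and TIP1) and 2 lower (NIP1-1 and OsTIP4;1), and 2 and 2 with scaling to the poly-A spikes. Among salt lectins and osmolyte enzymes (19) the trehalose phosphatases TPP10 (2.01) and TPP9 (1.29) were higher, while R40C1 (-2.27) and the sucrose synthases SUS1 (-1.93) and SUS4 (-1.57) were lower. The salt-induced lectin gene salT had 20 min signals of 85.3 and 42.8, against 9396 and 8605 at 3 h. NAC factors (7) had a median of 0.18, which turned to -0.11 with scaling to the poly-A spikes. NAC010 (1.03) was past 2-fold higher, though not with that scaling, and NAC45 and NAC2 (-1.04) were lower. Autophagy and cell death genes (16) had a median of -0.01 (-0.29 with that scaling), with ATG8D and LOL4 (1.02) higher. With that scaling only 1 gene was past 2-fold higher, and LOL4 was not.

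MYB, bZIP and zinc finger genes (77) had a median of 0.01, and -0.28 with scaling to the poly-A spikes. In them OsC3H40, OsC3H35 (1.30) and OsC3H54 (1.17) were past 2-fold higher, and OsC3H2 (-2.50), JAMYB (-1.21), TGAL4 (-1.19), OsbZIP49 (-1.09) and OsC3H65 (-1.03) lower. With that scaling 2 were past 2-fold higher and 8 lower. The other probe set of OsC3H2 gave 2.205, so its direction depends on the probe set. The 3 probe sets of OsC3H35 ran from 0.045 to 1.30. Clock genes (7) had a median of 0.38, and 0.09 with scaling to the poly-A spikes. The other 6 lists, PP2C phosphatases, MAP kinases, sodium and potassium transporters, auxin, gibberellin and cytokinin, and ethylene genes, had medians between -0.02 and 0.11, and between -0.31 and -0.18 with scaling to the poly-A spikes. With 1 probe set a gene, the largest single differences in them were ACO1 (-2.93), an ethylene-forming oxidase, and LOGL10 (-1.98), a cytokinin-activating enzyme. The phosphatase OsPP2C62 stood at -0.285 on its brighter probe set and at 3.331 on its other one.

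Leaf identity was checked by 4 chlorophyll-binding and Rubisco genes, whose summed signal at 20 min was 97790 in nontransgenic and 105500 in antisense leaves. The 6 seed storage markers summed to 1548 and 1554, nearly all of it GLUA-2. RNA controls differed between the genotypes, but not all in the same direction. The ratio of 3' to 5' signal of Gapdh was 3.08 on the nontransgenic and 12.3 on the antisense array at 20 min, and over the stages it was 2.78 to 3.22 against 7.79 to 12.3. The same ratios were 25.3 and 28.2 for actin, 1.91 and 1.84 for cyclophilin and 0.891 and 0.947 for ubiquitin at 20 min. For actin the nontransgenic ratio was the higher before salt (63.0 and 25.2) and at 3 h (29.5 and 18.0). The part of RNA quality in the differences was not tested.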

How the data were processed

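Biotin-labelled RNA from leaves was hybridised to Affymetrix rice arrays, 1 array a group, and labelled with a 3' kit per the labels' protocols. The authors deposited a log2 signal for each probe set, and the submitters' processing notes name MAS5 as the tool. Its version and scaling target were not stated there, and detection calls were not used here. The lowest linear signal was 1, and the trimmed mean was 500.1 on every array. The number of arrays limits the precision.

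Here 16 was added to linear signals before log2, and 28629 of 57258 rice probe sets with a 6-array mean at or above the median (5.53) were kept. The 123 control probe sets were left out. The platform annotation gave 1 gene for 22436 rice probe sets, several for 95 and none for 34727. RefSeq synonyms named 3192 probe sets of 2457 genes. The probe set with the highest mean stood for a gene. Python 3.11.15, numpy 2.4.6 and pandas 2.3.3 were used, and the code was checked on simulated arrays.

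Named were the 12 largest differences and 10 largest departures each way, up to 4 genes per list, and genes behind counts of 5 or fewer. A rule on product descriptions and a promoter motif search could not be applied, as neither was in the tables used here. Members and lists were chosen with earlier results of these data known. After values were seen, 48 list memberships were removed because the name means another function, the iron list was added to the 31 others, and the JAZ, DREB1, chitinase and CIPK subgroups were set apart. Alternatives changed the offset, filter, normalization, probe set choice, reference stages and list membership.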

Additional observations from a re-analysis of the deposited data

Results flagged for a closer look

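JAZ9 was at least 2-fold higher in antisense leaves at 20 min, by a log2 difference of 1.06, and at least 2-fold lower both before salt (-1.44) and at 3 h (-1.71). With scaling to the poly-A spikes it was higher by less than 2-fold at 20 min. With 1 array a group, the difference between stages was not tested.

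One of the probe sets of OsPP2C45, a protein phosphatase gene, went the other way, at -1.59 at 20 min against 1.14 before salt and 2.89 at 3 h. Its signals at 20 min were 36.2 and 1.31, near background, and its brighter probe set, at 6016 and 7076, differed by 0.23. This difference was not tested either, and the part of the dim signals in it was not tested. In all, 7 probe sets past the filter were higher at 20 min and past 2-fold lower at both other stages, and 5 went the opposite way. Besides JAZ9 and OsPP2C45 none of these 12 had a curated name.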

How the results depend on the processing

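With 1 array a group there was no spread between replicates, so a value counted as unmoved when it shifted by less than 0.54, the SD between probe sets of a gene, and a count when it stayed within 1.5 times. No paired analysis was possible because each group had 1 array, so the 20 min difference has 1 pair and no replicate could be left out. The 3 pairs over the stages could be fitted for a lasting genotype difference, which was not done here.

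Counts of probe sets past 2-fold moved with the offset, the filter and the spikes. With an offset of 64 they were 1026 higher and 1370 lower, with no filter 3843 and 4610, and with scaling to the poly-A spikes 1062 and 3493. Departures numbered 1686 up and 1770 down with an offset of 1, 384 and 351 with 64, 3923 and 4088 with no filter, and 2065 and 555 with the spikes. Against 3 h alone 1826 were up. The cause was not tested. Offsets act on dim probe sets by construction, and fewer or more probe sets enter under another filter.

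The other 312 counts and list medians stayed within those limits. For list medians this shows little, since 0.54 is wider than the shift that a scaling gives. Of 32 list medians 13 changed sign with the spikes, 6 with equal 75th percentiles and 4 with quantile normalization. The lists before 48 memberships were removed were an alternative chosen after seeing the data, and the clock median was then 0.49 and the abscisic acid median -0.15. Of the single genes' values 334 stayed and 58 moved, none with a change of sign. CPS2 ran from 1.60 to 4.57, KSL7 from 4.15 to 6.47 and rab25 from -6.48 to -3.22 at 20 min. Detection near background limits what dim signals can show.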
